A study of Mus musculus with 6 samples.

Results

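Glycolysis and the response to low oxygen were followed through 32 mouse genes in adherent peritoneal macrophages. They were picked by name from the 46141 genes of the deposited table: 22 encode glucose uptake, glycolytic enzymes and the handling of pyruvate and lactate, and 10 encode oxygen sensing or typical targets of hypoxia-inducible factor 1 (HIF-1). All 32 were found in the table, and 29 had at least 1 FPKM (fragments per kilobase, scaled to the depth of the library, so a level per unit of transcript length) in at least 3 of 6 libraries and were tested. None of the 29 passed that filter only through the libraries of a single group. Aldoc, Egln3 and Adm lay under it.

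Glycolysis splits glucose into pyruvate, and cells that reduce pyruvate to lactate regain the NAD+ that keeps the pathway running. Activated macrophages are known for high glycolytic flux. HIF-1 joins the labile subunit HIF-1 alpha to a stable partner. In normal oxygen, prolyl hydroxylases mark HIF-1 alpha for destruction. When oxygen is short, or when inflammatory signals stabilise the subunit, HIF-1 binds the letters ACGTG or GCGTG in hypoxia response elements and raises glucose transport, most glycolytic enzymes and genes of angiogenesis and mitophagy. The regulated step is largely the stability of the protein, which RNA levels do not report.

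The libraries came from male Balb/c mice aged 6 to 8 weeks, 18 per group, with cells of 6 mice pooled into each of 3 libraries. All mice had received 2 mL of 3% thioglycollate broth, an irritant that draws monocytes and macrophages into the peritoneum, 3 days before sampling. The control group then received 0.2 mL of phosphate-buffered saline (PBS), and the other group 0.2 mL of BSN-37 at 48 µg/mL, an agent known here by its code name alone. Cells were washed out after 12 h and kept for 4 h on plastic, a step that enriches macrophages. Total RNA depleted of ribosomal RNA was sequenced, at 55882693 to 65456020 counted reads per library. PBS library 1 stood apart in a principal component analysis (component 1, with 40.6% of the variance, at -36.9 against -1.48 to 14.8 in the other 5). Values without it are given where its absence turned a sign or moved a difference by over 1.5 times. This covers the members described by library, the list medians and the isozyme shares. It leaves out Gapdh, Egln3 and Adm, whose differences without that library were not read.

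The labelled cell type was checked on 6 macrophage markers (Adgre1, Csf1r, Cd68, Itgam, Mertk and Lyz2). Summed, they reached 15120 to 17480 FPKM after PBS and 15130 to 17810 FPKM after BSN-37. That sum was mostly Lyz2 (13210 to 15800 FPKM) and says little of the other markers. Of the 6, 3 had positive and 3 negative differences. Adgre1 had 383, 425 and 328 FPKM in PBS and 317, 391 and 264 in BSN-37. Markers of other cells moved beside the comparison. All 6 monocyte markers had positive differences (summed level 2060 to 2329 FPKM in PBS and 2372 to 2937 in BSN-37), as did all 5 tested of 8 B cell markers (7.25 to 16.0 and 13.9 to 31.0). The monocyte sum was mostly Fn1 (2149, 2200 and 1967 FPKM in PBS and 2683, 2119 and 2369 in BSN-37) and understates the other markers. Ccr2 had 18.5, 27.9 and 27.0 FPKM in PBS and 49.6, 58.3 and 57.6 in BSN-37. The median log2 difference was 1.01 for the 6 monocyte markers and 1.16 for the 5 B cell markers. Neutrophil markers summed to 132.8 to 163.6 and 158.6 to 262.6 FPKM, with 4 of 7 tested positive. That sum was mostly Csf3r, Mmp9 and S100a8 and says little of the other markers. Of all 10, 5 had a higher and 5 a lower mean after BSN-37. Ly6g, among the lower, had 1.12, 1.80 and 1.03 FPKM in PBS and 0.698, 1.32 and 0.408 in BSN-37. Red cell globin transcripts were uneven, with an erythroid sum of 20.1 FPKM in PBS library 2 and 33.9 in BSN-37 library 3 against at most 1.28 in the other 4, and Slc4a1 was at 0 throughout. Markers of T and NK cells stayed at or under 0.517 FPKM in sum, and those of mast cells and eosinophils at or under 0.878, with Prg2 at 0. Mesothelial and fibroblast markers summed to 2.58 to 7.21 and 3.15 to 7.76 FPKM. The part of any of these cells in the results below was not tested.

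The comparison asked how the RNA of these genes stood after BSN-37. The glucose transporter gene Slc2a1 had the lowest p of the members and a lower level after BSN-37, and the platelet-type phosphofructokinase gene Pfkp also lay lower, while the angiogenic factor gene Vegfa and the mitophagy receptor gene Bnip3l lay higher. None of them passed the threshold. With edgeR's quasi-likelihood test and Benjamini-Hochberg adjustment over 9850 coding genes, 0 of the 29 tested members were called at 0.05 (lowest adjusted p = 0.415), where 0.0102% of all tested genes, a single gene (Zfp36l1, log2 difference 1.46, adjusted p = 0.0463), were. DESeq2 called 0 members as well, against 1.16% of all genes (lowest adjusted p of a member 0.0739, Slc2a1). At an unadjusted edgeR p under 0.05 there were 4 members, Slc2a1 and Pfkp lower and Vegfa and Bnip3l higher, where 9.04% of all tested genes met that rule, 4.41% lower and 4.63% higher. DESeq2 gave 5 members at an unadjusted p under 0.05, against 10.7% of all genes.

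Of the 21 tested glycolytic members 17 had negative log2 differences, with a median of -0.12, beside 50.4% negative and a median of 0.00 (-0.0018) over all tested genes. Of the 8 tested oxygen sensing and hypoxia members 4 were negative and 4 positive, with a median of 0.03. Without PBS library 1 the glycolytic median was -0.07, with 13 of 21 negative, and the hypoxia median was -0.03. The difference between the 2 medians was not tested. The groups did not overlap for 5 of the 29 (Slc2a1, Hk1, Pfkp and Pgam1 lower, Vegfa higher, in CPM, counts scaled to library depth), or 17.2%, beside 15.1% of all tested genes, 8.05% lower and 7.02% higher. That share is near the background and says nothing particular about these genes. With TMM scaling, a further adjustment of library size that the test uses, the groups just overlapped for Pgam1.

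**Figure D1:**
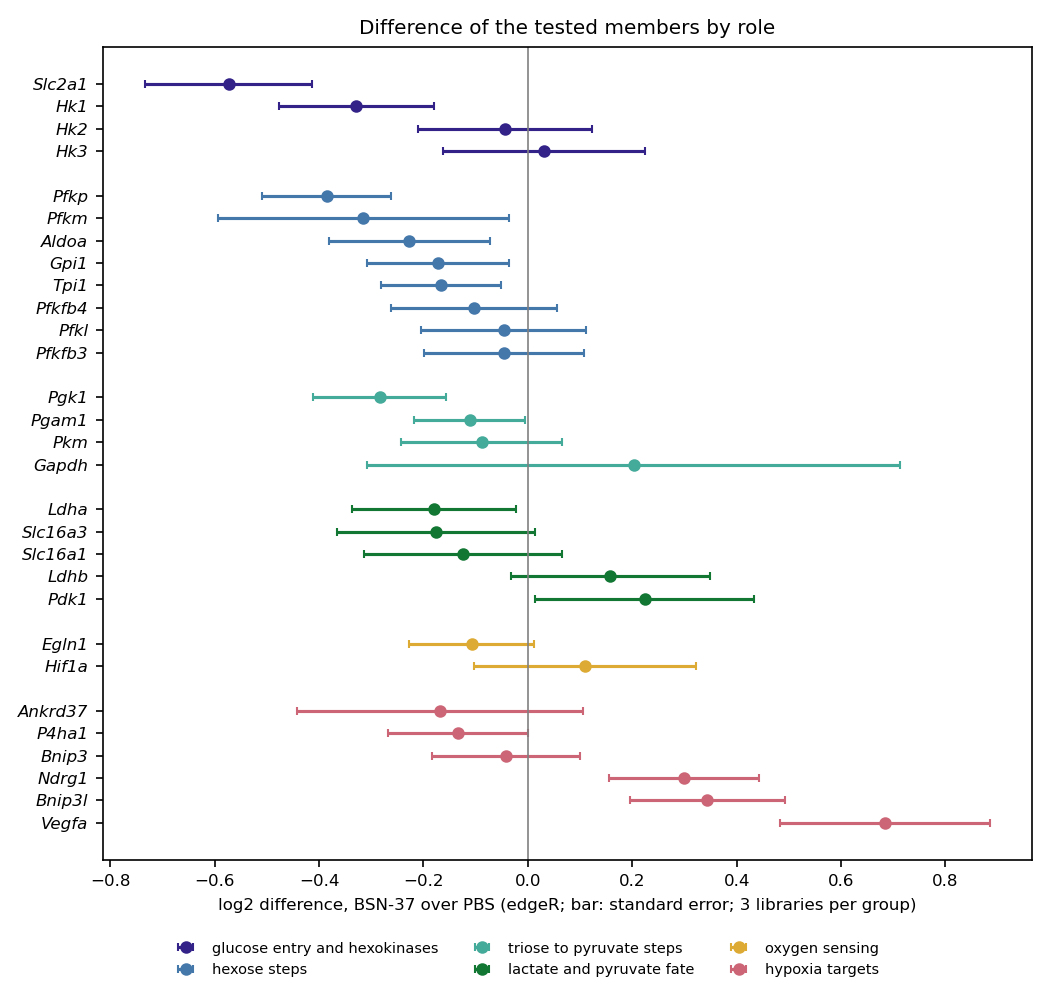
Log2 difference (BSN-37 over PBS, edgeR) of the 29 tested members, 1 point per gene with its standard error, 3 libraries per group, coloured by role. Slc2a1 (-0.57) lies farthest to the left and Vegfa (0.68) farthest to the right, and 0 of the 29 passed the adjusted threshold.

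Glucose enters through GLUT1, the product of Slc2a1 (chromosome 4, 119108711 to 119137983, plus strand, GRCm38). In library order, its level was 73.3, 73.3 and 76.2 FPKM after PBS and 58.3, 55.5 and 38.9 FPKM after BSN-37, and all values by library below keep that order. All 3 BSN-37 pools lay below all 3 PBS pools, with library 3 the lowest. The means were 74.3 ± 1.72 and 50.9 ± 10.5 FPKM (SD; every mean below is likewise over 3 pools). The log2 difference was -0.57 (SE 0.16, edgeR adjusted p = 0.415). Without BSN-37 library 3 the difference was -0.42, and over the 6 fits that leave out a library it ran from -0.71 to -0.42. In RNA from a mixed lavage, fewer cells that carry a transcript and less of it per cell cannot be told apart.

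Hexokinases trap glucose inside the cell as glucose 6-phosphate. Hk1, the broadly expressed form, had 33.4, 27.4 and 28.2 FPKM in PBS and 25.7, 26.8 and 20.1 in BSN-37. The groups did not overlap, though only narrowly between PBS library 2 and BSN-37 library 2 (log2 difference -0.33, SE 0.15, edgeR adjusted p = 0.556). Without BSN-37 library 3 the difference was -0.21, and without PBS library 1 it was -0.23. Hk2, the inducible form, had 22.0 ± 3.54 and 21.5 ± 4.46 FPKM (-0.04), and Hk3, the form typical of myeloid cells, 36.6 ± 7.11 and 38.2 ± 9.15 (0.03). Both were highest in PBS library 1 and BSN-37 library 3, so their spread lay within the groups. Hk3 had the highest mean level of the 3 hexokinases, at 37.4 FPKM over the 6 libraries, before Hk1 (26.9) and Hk2 (21.7).

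**Figure D2:**
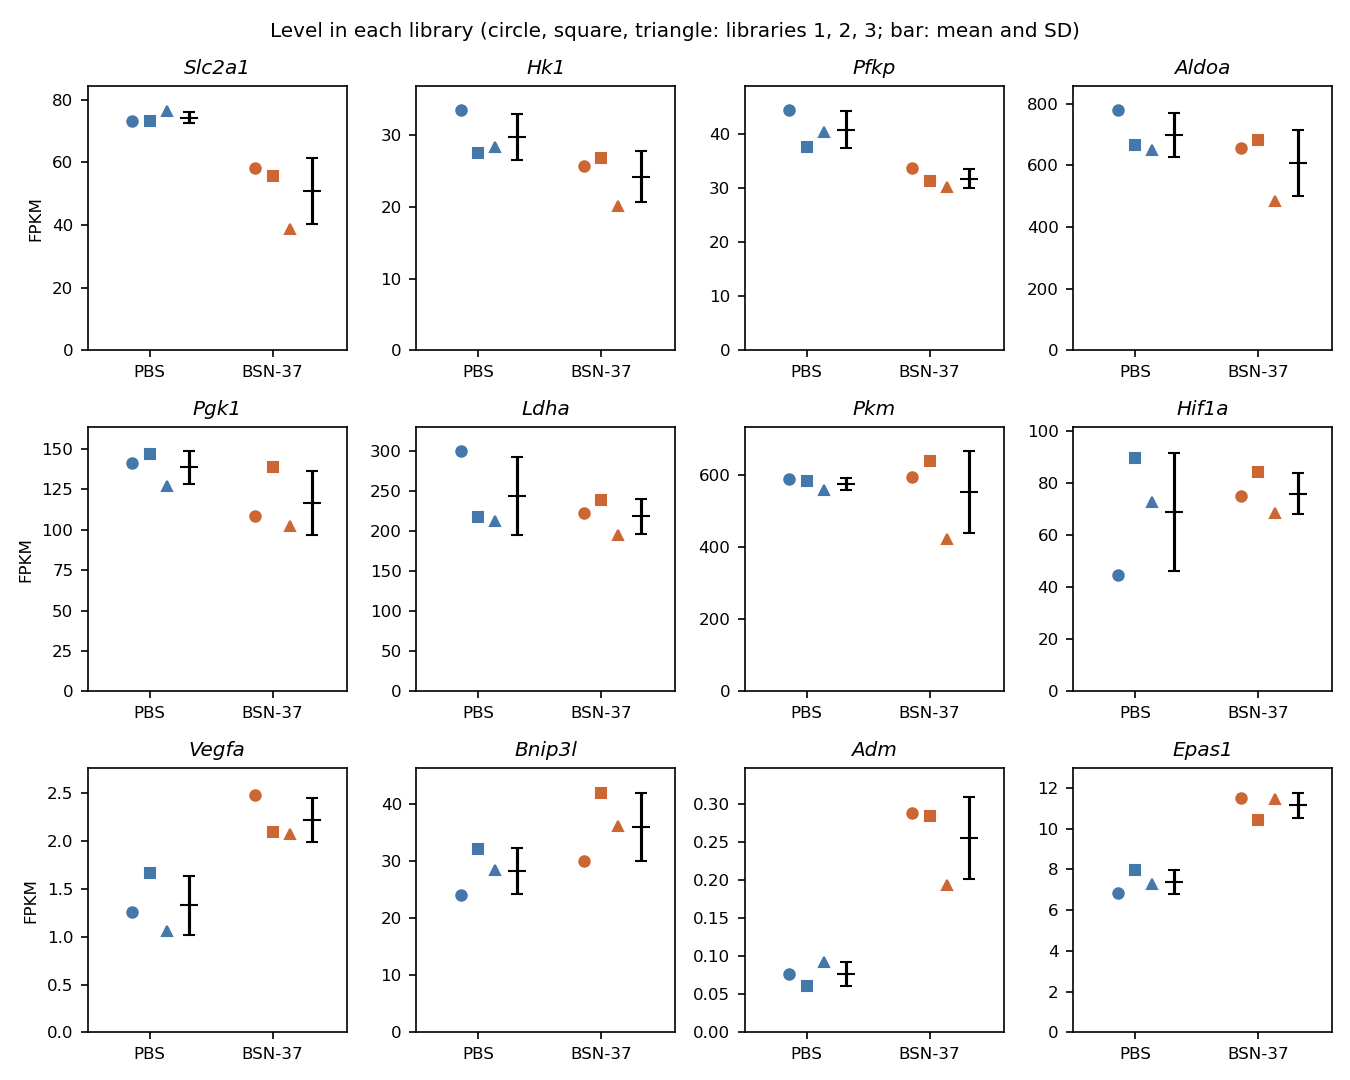
FPKM (vertical axes from 0) of 11 members and of Epas1 in each library, with circle, square and triangle for libraries 1, 2 and 3 of a group and a bar for the mean and SD. Slc2a1, Hk1 and Pfkp lie lower in all BSN-37 pools, Vegfa, Adm and Epas1 higher, and Pkm and Aldoa are low in BSN-37 library 3 (425 and 484 FPKM).

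Phosphofructokinase commits sugar to glycolysis, and its platelet-type gene Pfkp (chromosome 13, 6579768 to 6648777, minus strand) was the most abundant of the 3 forms. Pfkp had 44.5, 37.6 and 40.4 FPKM in PBS and 33.7, 31.2 and 30.2 in BSN-37. Every BSN-37 pool lay below every PBS pool. The log2 difference was -0.39 (SE 0.12, edgeR adjusted p = 0.433), and it ran from -0.46 to -0.31 with a library left out. The liver form Pfkl had 16.6 ± 3.18 and 16.5 ± 1.94 FPKM (-0.05), and the muscle form Pfkm 1.14 ± 0.344 and 0.927 ± 0.215 (-0.32, SE 0.28). Pfkfb3 and Pfkfb4, which make and remove the phosphofructokinase activator fructose 2,6-bisphosphate, had log2 differences of -0.05 (SE 0.15) and -0.10 (SE 0.16).

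Aldoa, the aldolase of most tissues, was the most abundant member, at 653 FPKM over the 6 libraries. Its level was 779, 665 and 649 FPKM in PBS and 656, 684 and 484 in BSN-37. The groups overlapped, and the lowest value was that of BSN-37 library 3 (log2 difference -0.23, SE 0.15, edgeR adjusted p = 0.665). The difference was -0.09 without that library and -0.14 without PBS library 1. The isomerase genes Gpi1 (192 ± 16.4 and 173 ± 22.9 FPKM, -0.17) and Tpi1 (144 ± 12.3 and 131 ± 9.24, -0.17) overlapped too. Aldoc, the brain-type aldolase, stayed at 0.217 to 0.694 FPKM and was not tested.

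In the steps from triose to pyruvate, Pgk1, the first ATP-forming enzyme, had 141, 147 and 127 FPKM in PBS and 108, 139 and 102 in BSN-37. Libraries 1 and 3 of the BSN-37 group were below every PBS pool and library 2 was within their range (log2 difference -0.28, SE 0.13, edgeR adjusted p = 0.556). The mutase gene Pgam1 was steady, with coefficients of variation in CPM of 3.17% in PBS and 3.37% in BSN-37, at 185, 175 and 170 FPKM in PBS and 168, 163 and 167 in BSN-37. These groups did not overlap in FPKM or CPM, but PBS library 3 and BSN-37 library 1 nearly met (log2 difference -0.11, SE 0.11, adjusted p = 0.747). With TMM scaling the groups just overlapped, at log2 distances from the PBS mean of -0.0448 in PBS library 2 and -0.0446 in BSN-37 library 1. The difference was -0.07 without PBS library 1 and likewise without BSN-37 library 2. Pkm, which makes pyruvate and ATP, had 590, 585 and 559 FPKM in PBS and 596, 641 and 425 in BSN-37. Its BSN-37 libraries 1 and 2 lay above all PBS pools and library 3 below them (log2 difference -0.09, SE 0.15, adjusted p = 0.864), and without library 3 the sign turned (0.07). Without BSN-37 library 1 or 2 the difference was -0.17.

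Gapdh, which oxidises glyceraldehyde 3-phosphate and often serves as a reference gene, was the least steady member. It had 3791, 5511 and 14378 reads after PBS and 11707, 9362 and 4371 after BSN-37, or 62.7, 88.6, 220, 210, 154 and 67.4 CPM. PBS library 3 and BSN-37 libraries 1 and 2 were high and the other 3 low, so the split did not follow the groups. Its coefficient of variation in CPM was 68.0% in PBS and 49.8% in BSN-37, where the median tested gene had 12.7% and 11.1%. The log2 difference was 0.20 with an SE of 0.51 (edgeR adjusted p = 0.909). PBS library 1 held its lowest CPM, and the difference without that library was not read, so its sign is not settled. The deposited FPKM went further apart, at 19.2, 24.8 and 170 in PBS and 185, 148 and 20.3 in BSN-37.

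FPKM and counts of 1 gene should keep nearly the same ratio in all libraries, and for Gapdh they did not. FPKM per CPM was 0.306, 0.279 and 0.774 after PBS and 0.883, 0.955 and 0.301 after BSN-37, 3.42 times as high in the highest as in the lowest. Over all tested genes the median of this quotient, highest over lowest, was 1.05 and the 99th percentile 1.54, and Gapdh ranked 6th of 9850. That quotient exceeded 3 in 7 tested genes (0.0711%) and 2 in 19 (0.193%). Among the other 28 tested members it reached at most 1.28, in Pfkfb3. The mouse genome holds many processed pseudogenes of Gapdh and some of Aldoa, Pgk1, Pgam1, Tpi1 and Ldha, and the sources used here do not say how reads shared with such copies were counted, so these levels are uncertain to that extent. The part of such copies in the spread of Gapdh was not tested.

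**Figure D3:**
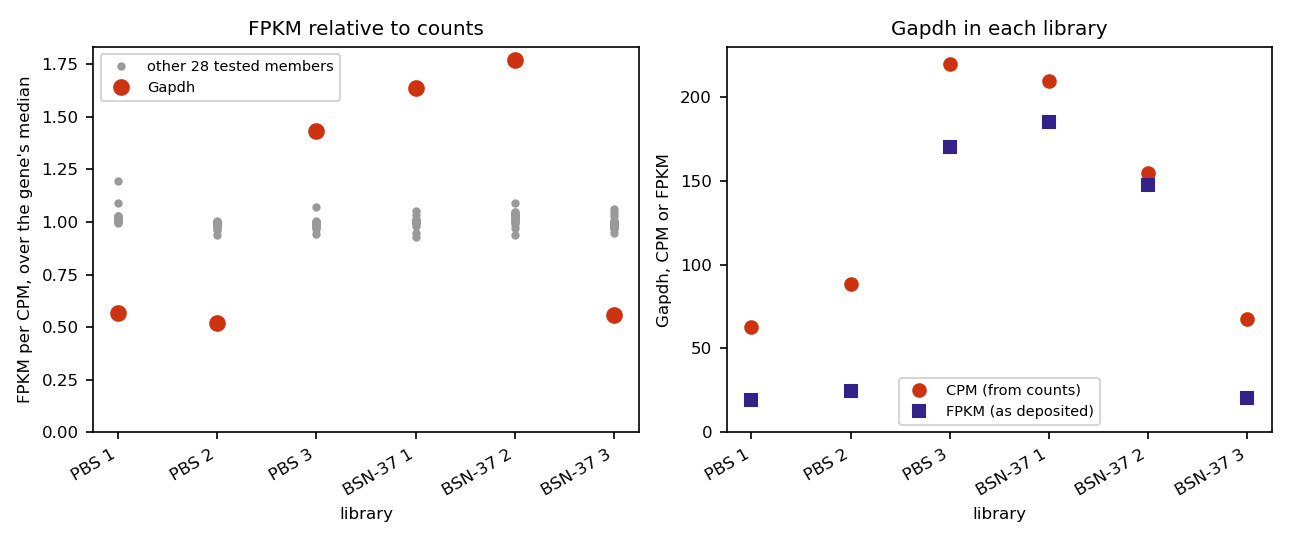
Left, FPKM per CPM in each library divided by the gene's own median, for Gapdh and the other 28 tested members. Right, Gapdh in CPM and in FPKM by library; the high values are those of PBS 3, BSN-37 1 and BSN-37 2, so neither scale separates the groups.

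At the end of the pathway, lactate dehydrogenase turns pyruvate to lactate. Ldha had 300, 218 and 213 FPKM in PBS and 223, 239 and 195 in BSN-37. PBS library 1 was the highest and the other 5 lay close together (log2 difference -0.18, SE 0.16, edgeR adjusted p = 0.720), and without that library the difference was 0.00 (0.0019). Without BSN-37 library 3 it was -0.11. Ldhb, the heart-type subunit, had 4.76 ± 0.143 and 5.39 ± 1.25 FPKM (0.16). Of the lactate carriers, Slc16a3 (the exporter MCT4) had 43.8 ± 6.46 and 39.8 ± 11.6 FPKM (-0.18) and Slc16a1 (MCT1) 1.93 ± 0.305 and 1.81 ± 0.397 (-0.12). Pdk1, the kinase that closes pyruvate dehydrogenase and so holds pyruvate back from the mitochondrion, had 1.604, 1.32 and 1.40 FPKM in PBS and 1.27, 1.38 and 2.06 in BSN-37. Its positive difference (0.22, SE 0.21, adjusted p = 0.742) came with the high value of BSN-37 library 3 and was -0.01 without it.

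Choice among isozymes was compared as shares of summed FPKM, with a two-sided exact permutation test of 3 against 3 pools, which cannot give a p under 0.1. Over 6 shares no adjusted p was below 0.6. Pfkl made up 30.3, 29.4 and 25.0% of phosphofructokinase RNA in PBS and 29.9, 33.5 and 37.2% in BSN-37, and the groups overlapped (difference 5.27 percentage points, exact permutation p = 0.2; 3.43 points without BSN-37 library 3). Ldhb made up 1.96 ± 0.322 and 2.42 ± 0.613% of lactate dehydrogenase RNA (exact permutation p = 0.3), so that Ldha dominated in every pool. That difference of 0.465 percentage points was 0.280 without PBS library 1, and with BSN-37 library 3 or 1 left out it was 0.199 or 0.800. Slc16a3 made up 95.7 ± 0.822 and 95.5 ± 1.17% of the sum with Slc16a1 (exact p = 0.8), and Hk2 24.9 ± 0.520 and 25.5 ± 2.36% of the 3 hexokinases (exact p = 0.8). Pfkfb4 held 34.4 ± 1.75 and 35.0 ± 6.74% (exact p = 0.9), and Aldoc at most 0.0890% of its family in any pool (exact p = 0.2). Without PBS library 1 the difference in the Aldoc share went from -0.0172 to -0.00924 percentage points, and that in the Slc16a3 share from -0.207 to 0.210.

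**Figure D4:**
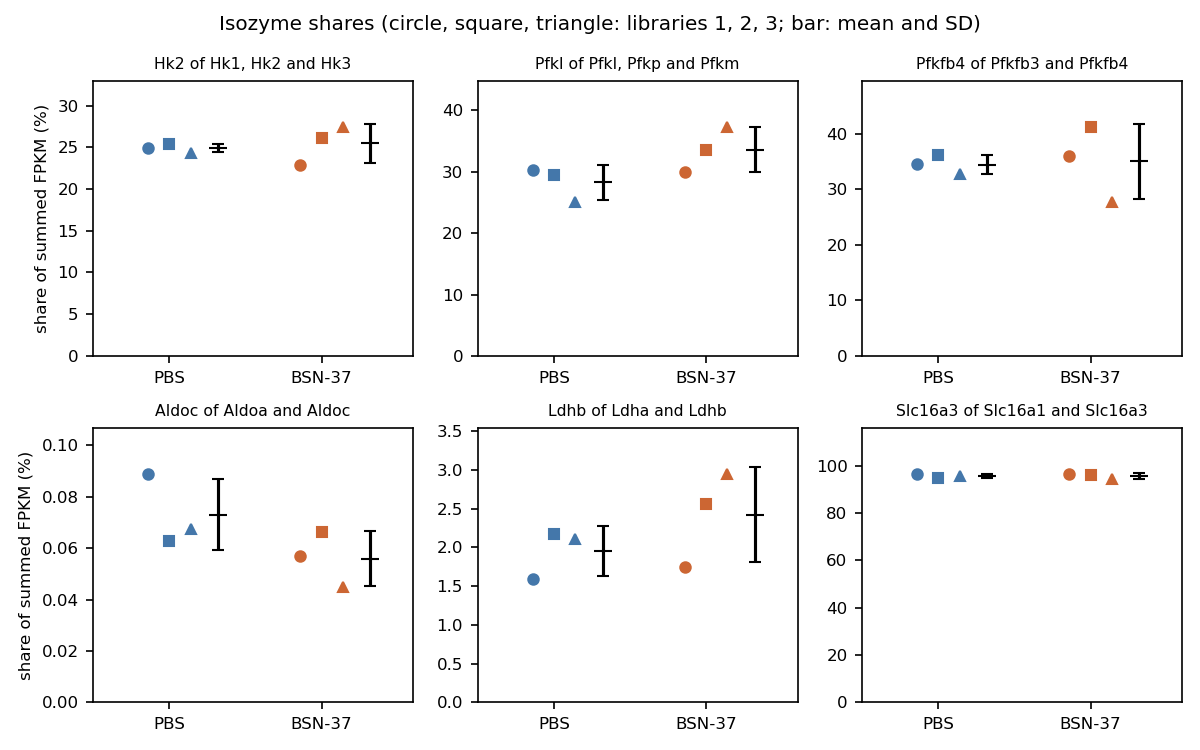
Share of summed FPKM (percent, axes from 0) of 6 isozymes in their family by library, with circle, square and triangle for libraries 1, 2 and 3 and a bar for the mean and SD. Ranges of the groups overlap in all 6 panels, and Slc16a3 lies between 94.2 and 96.6% throughout.

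The sensor genes of the oxygen response were present in all pools. Hif1a, the HIF-1 alpha gene, had 44.7, 89.7 and 72.6 FPKM in PBS and 75.2, 84.1 and 68.7 in BSN-37. PBS library 1 was low and the other 5 overlapped (log2 difference 0.11, SE 0.21, edgeR adjusted p = 0.879), and the sign turned without that library (-0.11). The difference was 0.30 without PBS library 2, 0.18 without PBS library 3 and 0.06 without BSN-37 library 2. Egln1, the main hydroxylase (PHD2), had 9.20, 8.44 and 7.82 FPKM in PBS and 7.52, 9.13 and 7.47 in BSN-37 (-0.11, SE 0.12, adjusted p = 0.784). Those ranges overlap, and the difference ran from -0.18 (without BSN-37 library 2) to -0.04 (without PBS library 1), with -0.06 without BSN-37 library 3. Egln3, the inducible hydroxylase PHD3, had 1.07, 1.40 and 0.983 FPKM in PBS and 0.762, 0.608 and 0.825 in BSN-37. All of its BSN-37 pools were below all PBS pools, and with no filter its log2 difference was -0.67 (SE 0.25, edgeR adjusted p = 0.545).

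Among HIF-1 targets outside glycolysis, Vegfa (chromosome 17, 46016993 to 46032369, minus strand), which encodes the growth factor of blood vessels, had 1.25, 1.66 and 1.06 FPKM in PBS and 2.48, 2.10 and 2.07 in BSN-37. Every BSN-37 pool was above every PBS pool. The log2 difference was 0.68 (SE 0.20, edgeR adjusted p = 0.431), from 0.58 to 0.85 with a library left out. Bnip3l (NIX), a receptor for the removal of mitochondria, had 24.0, 32 and 28.4 FPKM in PBS and 29.98, 41.9 and 36.0 in BSN-37. BSN-37 library 1 lay below PBS library 2, so the groups overlapped (0.34, SE 0.15, edgeR adjusted p = 0.543). Its close relative Bnip3 stood at 7.54 ± 0.264 and 7.62 ± 1.61 FPKM (-0.04).

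Adm, the gene of the vasodilator peptide adrenomedullin, was near the limit of detection, with 9, 7 and 12 reads after PBS and 25, 28 and 22 after BSN-37. All 3 BSN-37 counts exceeded all 3 PBS counts, but at 0.0617 to 0.289 FPKM it was not tested with the others. With no filter its log2 difference was 1.45 (SE 0.73, edgeR adjusted p = 0.671). Ndrg1, a stress-induced gene, had 15.6 ± 1.02 and 19.6 ± 4.12 FPKM (0.30, adjusted p = 0.574). P4ha1, a collagen prolyl hydroxylase subunit, had 19.4 ± 1.19 and 17.7 ± 2.62 (-0.13), and Ankrd37, a small ankyrin repeat gene, 2.40 ± 0.391 and 2.20 ± 0.703 (-0.17).

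**Figure D5:**
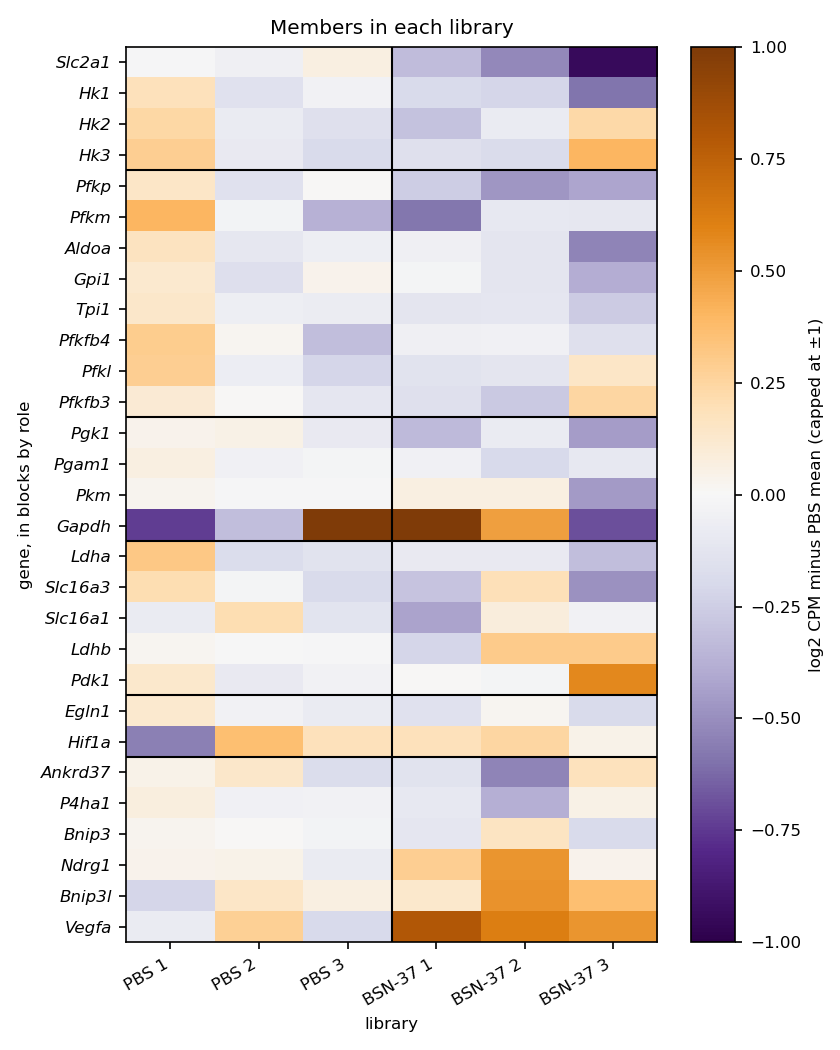
Log2 CPM of the 29 tested members in each library minus the gene's PBS mean (colour capped at 1 either way), in blocks by role from glucose entry to hypoxia targets. BSN-37 library 3 holds the lowest value of 9 glycolytic members, and Gapdh is high in PBS library 3 and BSN-37 libraries 1 and 2.

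Library by library, the glycolytic members had a median log2 distance from each gene's PBS mean of 0.13, -0.06 and -0.08 after PBS and of -0.15, -0.10 and -0.26 after BSN-37. All BSN-37 medians were below all PBS medians, but only narrowly between PBS library 3 (-0.0753) and BSN-37 library 2 (-0.1015). The SD of these medians within the groups was 0.1005. How often other lists of genes separate in this way was not computed. PBS library 1 held the highest CPM of 10 of the 21 genes (26.3% of all tested genes were highest there), and BSN-37 library 3 the lowest of 9 (20.4% of all genes) and the highest of 4 (23.0%). In BSN-37 library 3 Slc2a1, Hk1, Aldoa, Gpi1, Tpi1, Pgk1, Pkm, Ldha and Slc16a3 were at their lowest, while Hk2, Hk3, Pfkfb3 and Pdk1 were at their highest. With TMM scaling PBS library 1 held the highest of 12, Hk2 and Slc16a3 added, and BSN-37 library 3 the highest of 3. The oxygen sensing and hypoxia members had medians of 0.03, 0.09 and -0.06 in PBS and 0.02, 0.20 and 0.05 in BSN-37, which overlap.

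Promoter letters were read next, because Slc2a1 and Pgk1 on the lower side and Vegfa and Adm on the higher side are all classic HIF-1 targets. RefSeq promoters (GRCm38.p6) were found for 30 of the 32 members, and not for Bnip3l and Ndrg1. The 250 bases before each start were searched for ACGTG and GCGTG on both strands. Of the 42 promoters of members 34 (81.0%) held a match, beside 38.6% of all 32851 promoters. Promoters of tested coding genes held one in 57.5%, but only 76.9% of those genes could be matched to a promoter, so that figure is incomplete. The 38.6% also covers genes that were not tested here, so the 57.5% is the closer background of these. The longer letters CACGTG, which contain ACGTG on either strand and also form an E-box, were in 14.3% of members' promoters, in 6.02% of all and in 8.78% of those matched to tested coding genes, with the same gap in matching. A match is a description of the letters and not evidence of binding. The stretches below show the letters upstream of 5 of these genes, 5′ to 3′ on the gene's strand, with matches in capitals, and leave out bases that overlap an annotated exon.
Slc2a1, chr4:119108495-119108710, plus strand: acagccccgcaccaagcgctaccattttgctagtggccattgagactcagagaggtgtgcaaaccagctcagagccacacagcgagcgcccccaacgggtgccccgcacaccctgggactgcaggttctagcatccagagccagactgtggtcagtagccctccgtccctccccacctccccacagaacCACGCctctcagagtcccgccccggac
Pfkp, chr13:6648778-6649021, minus strand: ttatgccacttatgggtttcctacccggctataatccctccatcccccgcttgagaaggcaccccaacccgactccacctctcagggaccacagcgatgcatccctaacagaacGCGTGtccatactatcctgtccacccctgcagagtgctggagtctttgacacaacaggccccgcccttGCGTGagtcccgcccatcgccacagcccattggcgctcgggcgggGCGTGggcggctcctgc
Pgk1, chrX:106186850-106187099, plus strand: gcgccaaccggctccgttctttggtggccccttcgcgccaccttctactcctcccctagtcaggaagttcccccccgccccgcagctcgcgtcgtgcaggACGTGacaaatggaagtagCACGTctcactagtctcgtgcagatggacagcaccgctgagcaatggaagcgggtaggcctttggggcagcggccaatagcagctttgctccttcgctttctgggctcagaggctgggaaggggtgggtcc
Vegfa, chr17:46032378-46032627, minus strand: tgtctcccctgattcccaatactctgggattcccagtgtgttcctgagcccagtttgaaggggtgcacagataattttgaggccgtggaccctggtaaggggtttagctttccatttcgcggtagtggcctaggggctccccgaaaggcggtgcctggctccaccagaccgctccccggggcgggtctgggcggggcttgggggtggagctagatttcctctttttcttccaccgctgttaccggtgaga
Adm, chr7:110627407-110627656, plus strand: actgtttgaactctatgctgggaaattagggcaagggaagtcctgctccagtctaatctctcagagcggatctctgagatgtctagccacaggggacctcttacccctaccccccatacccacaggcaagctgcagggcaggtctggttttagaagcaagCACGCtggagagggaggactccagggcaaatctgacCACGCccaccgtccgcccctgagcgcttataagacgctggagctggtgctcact

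The stretch of Pfkp held 3 matches, those of Pgk1 and Adm 2 each and that of Slc2a1 1, with a further match in the bases up to its RefSeq start. The Vegfa window held none, which says only that the letters are not in these 250 bases, and the other Vegfa promoter of the table held 2. By gene, 28 of the 30 members with a promoter (93.3%) held a match in at least 1 promoter. Among tested coding genes it was 63.5%, with the same gap in matching. With matches before nearly all members, finding them on both sides was to be foreseen and says nothing of the differences.

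Companion genes were read from the same fit, and 0 of them were called by edgeR. Of 12 further glycolysis genes tested of 18, 9 had negative differences (median -0.16), led by Bpgm, which makes 2,3-bisphosphoglycerate, at 2.68 ± 0.296 and 1.78 ± 0.144 FPKM (-0.62, edgeR adjusted p = 0.431). The glucose transporter gene Slc2a8 (-0.37) and the monocarboxylate carrier gene Slc16a7 (0.30) followed. The pentose phosphate pathway, which branches from glucose 6-phosphate and yields NADPH, had 7 of 8 genes negative (median -0.17). Pgd, its second dehydrogenase, had 767 ± 35.9 and 629 ± 129 FPKM (-0.31, adjusted p = 0.582), Tkt, the transketolase, 92.3 ± 6.97 and 75.4 ± 16.2 (-0.32), and H6pd, the dehydrogenase of the endoplasmic reticulum, 55.5 ± 5.65 and 46.9 ± 0.553 (-0.26). In CPM the groups did not overlap for 4 of the 8, all lower (H6pd, Pgls, Pgd and Tkt), beside 15.1% of all tested genes and 8.05% lower. In FPKM Pgd and Tkt overlapped. With TMM scaling H6pd just overlapped, at log2 distances from the PBS mean of -0.1836 in PBS library 2 and -0.1824 in BSN-37 library 1.

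Around pyruvate dehydrogenase the genes were split, 7 positive and 5 negative of 12 tested (median 0.02). Pcx, which carboxylates pyruvate to oxaloacetate, had 1.52 ± 0.276 and 0.937 ± 0.206 FPKM (-0.73, edgeR adjusted p = 0.431). Pdp1, the phosphatase that opens pyruvate dehydrogenase, had 6.74 ± 0.762 and 8.96 ± 1.35 (0.39, adjusted p = 0.484), and Pdk3, a kinase that closes it, 4.43 ± 0.584 and 5.63 ± 1.15 (0.33). Of 11 genes of glycogen and gluconeogenesis 7 were negative (median -0.18), led by Pgm2, a phosphoglucomutase family gene (-0.35), with Pygb, a glycogen phosphorylase, at -0.25.

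In the oxygen sensing machinery (8 tested of 10, 5 positive, median 0.09), Epas1, which encodes HIF-2 alpha, had 6.84, 7.99 and 7.29 FPKM in PBS and 11.5, 10.4 and 11.5 in BSN-37. The pools of the groups were far apart compared with their spread, with a log2 difference of 0.57 (SE 0.12, edgeR adjusted p = 0.366), and DESeq2 called it (adjusted p = 0.00754). The coactivator genes Ep300 (0.21) and Cited2, a competitor for that coactivator (0.30), came next. Of 15 other hypoxia targets tested of 26, 7 were positive and 8 negative (median -0.02), and the 3 of lowest p were all positive: Kdm3a, a histone demethylase (12.2 ± 1.18 and 15.0 ± 0.777 FPKM, 0.27, adjusted p = 0.539), Hilpda, a lipid droplet protein gene (12.6 ± 1.21 and 16.4 ± 3.19, 0.32), and Fam162a, a mitochondrial protein gene (0.32). Under the filter, 3 of the other 11 had every BSN-37 pool below every PBS pool and Car12, at 2 to 17 reads, had every BSN-37 pool above (1.98, SE 1.10, edgeR with no filter, adjusted p = 0.699). These 4 were named after their values were seen. The share of all genes under the filter whose groups do not overlap was not computed, so this count has no background. Ak4, a mitochondrial adenylate kinase gene, had 284, 228 and 246 reads after PBS and 137, 137 and 160 after BSN-37 (-0.78, SE 0.23, adjusted p = 0.402). Angptl4, an inhibitor of lipoprotein lipase, had 122, 99 and 116 reads after PBS and 47, 55 and 63 after BSN-37 (-1.01, SE 0.31, adjusted p = 0.422). Edn1, the endothelin 1 gene, had 58, 70 and 65 reads after PBS and 19, 41 and 5 after BSN-37 (-1.52, SE 0.62, adjusted p = 0.601).

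None of the 1273 circular RNAs in the deposited junction table, at 2447 to 4564 junction reads per library, had a member as its host. Among companion genes, Gys1 hosted one with 5 reads in PBS library 3 and Ldhd one with 2 reads in PBS library 2, with 0 in the other libraries.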

How the data were processed

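The deposited gene table gives whole-number read counts and FPKM per library, per the file headers, and the deposited circular RNA table junction counts. Per the submitters' processing notes, reads were placed on GRCm38; the sources used here name no aligner, counter, annotation or strand setting. Microarrays appear in the design text, but the library protocol and values are from sequencing. Gene classes and coordinates came from GENCODE M21 by Ensembl ID. Tigar and Adgre1 carry older names in the table and were matched by ID. The 4 group-mean columns were not used.

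Coding genes that reached 1 FPKM in 3 or more libraries were tested on counts with edgeR 4.0.16 (R 4.3.3; TMM, glmQLFit, glmQLFTest, two-sided, no covariates), Benjamini-Hochberg over all 9850, threshold 0.05. Alternatives were limma 3.58.1 on log2(FPKM + 1) or log2(FPKM + 0.1), DESeq2 1.42.0, other scalings and filters, a replicate block and each library left out. Differences are BSN-37 over PBS on counts; CPM divide by all counted reads, and library medians use TMM-scaled CPM plus 0.5. The edgeR fit was tested on simulated data. Counts carry no molecular identifiers. All library pairs differed by more than sampling noise (chi-square over its degrees of freedom from 55.2 to 277). Nothing in the labels says more of the pools' independence than that mice were pooled by 6, so p-values measure the spread between pools.

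Members and lists were chosen with earlier results of these data known. Members named with every library are the 2 of lowest p in each role, plus Hif1a, Slc2a1, Ldha and Pkm; companions are the 3 of lowest p per list, of which 1 is not reported here. Gapdh, Adm, Egln3 and Epas1 were detailed after their values were seen.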

Additional observations from a re-analysis of the deposited data

How the results depend on the processing

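No member was called under any of the 8 other settings or with any library left out. The number of coding genes called, 1 with edgeR, was 0 with median-of-ratios factors, with limma on log2(FPKM + 1) or log2(FPKM + 0.1) and with the replicate block, 2 with no FPKM filter and 114 with DESeq2 (77 higher, 37 lower). With a library left out it ran from 0 to 12, with 12 without BSN-37 library 2 and 0 in the other 5 fits. The cause of these shifts was not tested. At 0 called genes, 871 (median-of-ratios), 861 and 848 (limma) and 1020 (block) had an unadjusted p under 0.05. The glycolytic median kept its sign in all 14 refits, from -0.19 to -0.07 with a library left out and from -0.17 to -0.08 otherwise. The hypoxia median ran from -0.03 (-0.0332, without PBS library 1) to 0.13 (without PBS library 2), and from 0.00 to 0.09 in the other settings, so its sign is not settled. Refits of single members were read for those given by library, other than Gapdh, Egln3 and Adm. Among these, signs turned without PBS library 1 for Ldha (0.0019, range with a library left out -0.27 to 0.00) and Hif1a (-0.11, range -0.11 to 0.30). Without BSN-37 library 3 they turned for Pdk1 (-0.0133, range -0.01 to 0.33) and Pkm (0.0666, range -0.17 to 0.07). Of the shares, Pfkfb4 turned from 0.572 to -0.289 percentage points on counts and ran from -2.51 to 4.18 with a library left out (-0.315 without PBS library 3), Hk2 ran from -0.417 (without BSN-37 library 3) to 1.87, and Slc16a3 from -0.612 to 0.465 (0.210 without PBS library 1). In the labels, same-numbered libraries share only a number. Their deviations correlated at 0.0549, 0.141 and -0.00817, where pairs of unlike number ran from -0.0987 to 0.0574. So few pools cannot settle whether they were handled in pairs. The replicate block called 0 coding genes and 0 members. Depth limits Adm, at 7 to 28 reads.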
